A study of Rattus norvegicus with 18 samples.

Results

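This account covers 74 transcripts that were listed at exactly 0 in the abdominal aorta of all 6 WKY rats and above 0 in all 6 SHR, out of 3659 transcripts listed for both strains. They were chosen by those values alone, so the strain difference in them is what defines them and is described here without a test. A further transcript, MERGE.16214.20, met the same condition and was left out with its large assembled locus; with it the condition held for 2.05% of the list. WKY, the Wistar Kyoto rat, is an inbred strain with normal blood pressure. SHR, the spontaneously hypertensive rat, was bred from related stock, develops hypertension without any treatment and is commonly set against WKY. Both groups received double distilled water by gavage for 10 weeks. The third group, SHR+ETH, consisted of SHR that received ethoxysanguinarine (ETH), an alkaloid found in plants, at a daily gavage dose of 3.5 mg/kg over the same 10 weeks. Their treatment is labelled both as water and as ETH, and they were grouped by their group label. SHR were randomised between water and ETH, and the 18 animals gave 1 library each, 6 per group. Age and sex were not stated in the labels, and WKY and SHR differ in their whole genetic background as well as in blood pressure.

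The wall of the aorta consists mainly of smooth muscle cells, elastic fibres and collagen, with an endothelial lining and an adventitia of fibroblasts, fat and immune cells. In hypertension the wall thickens and its smooth muscle cells and matrix are remodelled. A gene can give rise to several transcripts that differ in their start, end or choice of exons, and a strain can lack a transcript, or use another one of the same gene, without losing the gene's product. Programs that estimate transcript levels divide reads that fit several overlapping transcripts among them, so a value of 0 for a transcript does not show that its gene was silent. In RNA from whole tissue, fewer cells of a type and less RNA per cell cannot be told apart.

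Of the 74 transcripts, 10 were Ensembl transcripts and 64 were assembled ones (MERGE numbers, in which the first number names the locus and the last the transcript). Ensembl identifiers thus made up 13.5% of these transcripts and 26.2% of the whole list, in which 957 of 3659 were Ensembl transcripts. The assembled members belonged to 58 loci, of which 5 held 2 or more. None of the 10 Ensembl identifiers was found in the gene table used here, so neither genes, sequences nor chromosomal positions can be given, and the labelled tissue could not be checked against the markers of aortic cell types. The summed value of the list ranged from 23696 to 50052 in SHR libraries and from 30307 to 50521 in WKY libraries. Between 597 and 745 listed transcripts were at 0 in an SHR library and between 731 and 986 in a WKY library. Neither the unit of the values nor the sequencing depth is known, so no detection limit can be attached to a value of 0. Whether the values are corrected for transcript length is not stated either, so the order of transcripts below is an order of deposited values.

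The list itself set a lower bound on what could be found. No listed transcript had a mean below 0.250 across the 12 libraries of both strains, and a transcript at 0 in all WKY libraries reaches such a mean only with a mean near 0.5 or more in SHR. The lowest SHR mean among the 74 was 0.515. Transcripts at 0 in all WKY libraries made up 8.14% of the list. Outside the 2 assembled loci left out there were 293, of which 74 were above 0 in 6 SHR libraries, 57 in 5, 75 in 4, 85 in 3 and 2 in 2. None was above 0 in fewer. Seen from the other strain, 2260 transcripts were above 0 in all SHR libraries, and 74 of these were at 0 in all 6 WKY libraries and 68 in 5 of the 6. The plot of these counts shows no gap between the 74 and the transcripts that missed the rule by 1 library.

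**Figure D1:**
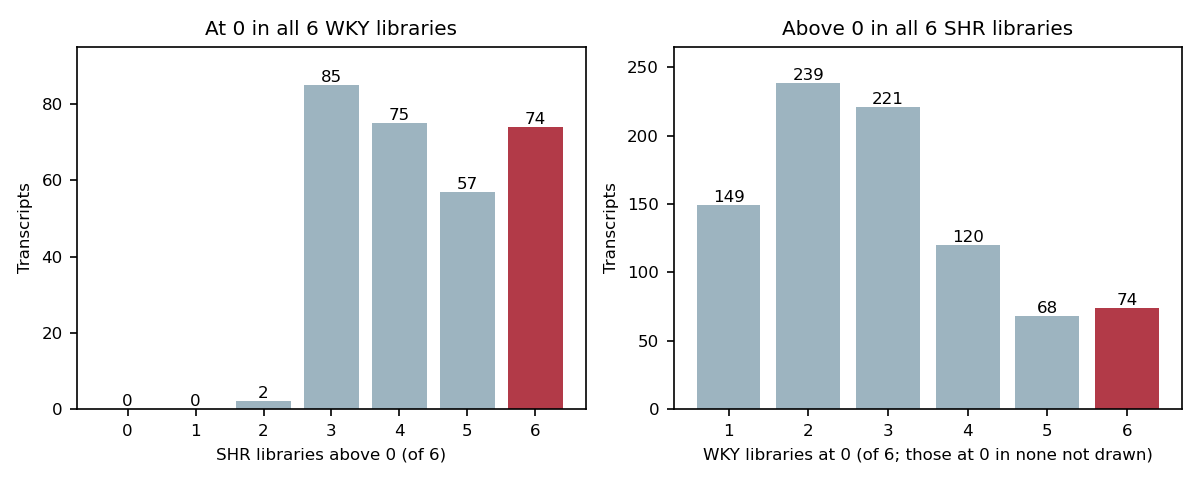
Number of transcripts (vertical axes) by the number of SHR libraries above 0 among those at 0 in all WKY libraries (left) and by the number of WKY libraries at 0 among those above 0 in all SHR libraries (right). The red bars are the same 74 transcripts; the neighbouring bars hold 57 and 68.

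Transcripts just outside the rule differed from those inside it by a single library. MERGE.15948.46 was at 0 in SHR 59 and in all WKY libraries, although it stood at 51.4 in SHR 48, 40.4 in SHR 41 and 25.7 in SHR 60. MERGE.15583.1 was also at 0 in SHR 59, with 4.10 to 6.63 in the other 5 SHR. MERGE.16145.78 was at 0 in SHR 48, with 4.06 to 11.3 in the others. On the WKY side, MERGE.16145.37 missed the rule by a value of 0.00277 in WKY 6, MERGE.17607.1 by 0.00613 in WKY 2 and MERGE.4134.2 by 0.00807 in WKY 5. Such near-zero exceptions were the minority: among the 68 transcripts above 0 in a single WKY library that value had a median of 0.406, a maximum of 70.8 and was under 0.05 in 7. That single library was WKY 6 in 17 transcripts, WKY 4 in 15 and WKY 3 in 5. Inside the rule, the smallest value that admitted a member was 0.00749, for MERGE.4323.2 in SHR 59.

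MERGE.8077.3 had by far the highest value. It was at 0 in every WKY library and ranged in SHR from 89.9 (SHR 41) over a median of 115.2 to 140.8 (SHR 48). Its mean in SHR was 117 ± 19.2 (SD, n = 6), and its coefficient of variation of 0.164 was the lowest of the 74. It made up 37.6% of the signal of the 74 summed over the SHR libraries, and no other transcript of its locus was listed. The other 73 transcripts stood far below it.

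Only 3 more members had an SHR median of at least 10. The Ensembl transcript ENSRNOT00000002310 ranged from 11.6 in SHR 60 to 22.5 in SHR 41, with a median of 17.2. MERGE.19064.1 ranged from 5.80 in SHR 48 to 24.5 in SHR 60, with a median of 13.9. MERGE.19981.1 ranged from 9.61 in SHR 59 to 17.5 in SHR 41, with a median of 13.1. These ranges overlapped one another, so the order of the 3 is not firm, whereas each of their 6 values lay below all 6 of MERGE.8077.3. MERGE.16145.43 followed with a median of 8.26 (3.79 to 16.7), then ENSRNOT00000072384 with 7.87, MERGE.18181.1 with 7.72 (3.27 to 11.6), MERGE.17566.3 with 6.25, MERGE.15790.5 with 5.47 (1.14 to 11.3) and MERGE.15759.3 with 5.04 (2.80 to 6.50).

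Many members were low. The median of their SHR medians was 1.07, against 0.777 over all listed transcripts, and 34 of the 74 had a median under 1. In 17 every SHR library stood at 1 or above. The coefficient of variation between SHR libraries had a median of 0.517 among the 74 and 0.693 among the other listed transcripts; the rule, which asks for a value above 0 in every SHR library, keeps out the most uneven transcripts.

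**Figure D2:**
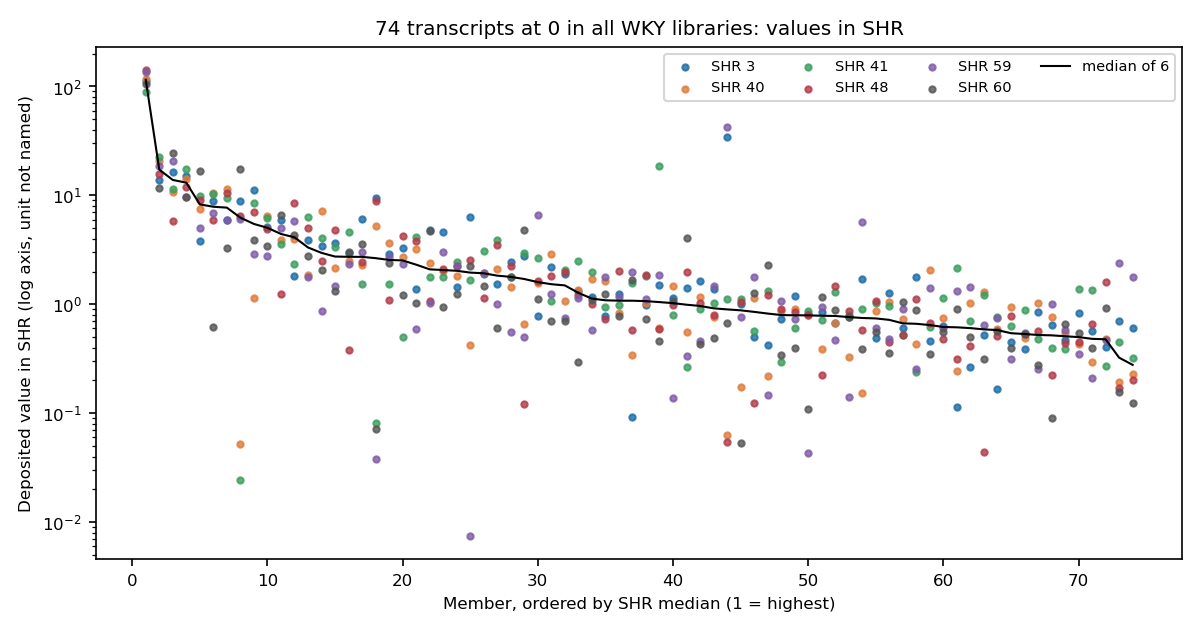
Deposited value (log axis, unit not named) of each of the 74 transcripts in the 6 SHR libraries, ordered by SHR median, with the median as a line; all were at 0 in WKY. MERGE.8077.3 stands alone near 115.2 at the left, the 3 next lie between 5.80 and 24.5, and single points far above or below the line mark the uneven members.

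The 10 Ensembl members had SHR medians from 17.2 down to 0.645. Beside ENSRNOT00000002310, its near neighbour in numbering, ENSRNOT00000002308, was also a member, with a median of 2.53 and values from 0.502 in SHR 41 to 4.26 in SHR 48. The library that was highest for the first was thus the lowest for the second. SHR 60, the lowest for the first, was however also low for the second, at 1.22. ENSRNOT00000072384 stood between 5.94 and 10.6 in 5 SHR libraries and at 0.614 in SHR 60. ENSRNOT00000042283 ranged from 1.77 to 6.28 with a median of 3.33, and ENSRNOT00000041838 from 1.31 to 4.79 with a median of 2.74. ENSRNOT00000044028 ranged from 0.590 to 4.18 with a median of 2.31. These last 3 had their 3 highest values among SHR 3, 40, 41 and 48, and SHR 59 and SHR 60 were among their 3 lowest. ENSRNOT00000066132 was highest in SHR 60, at 4.08, and lay between 0.264 and 1.98 in the others. The remaining 3 were low: ENSRNOT00000075105 ranged from 0.739 to 1.85, ENSRNOT00000080996 from 0.395 to 1.19 and ENSRNOT00000075985 from 0.349 to 2.05.

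Some members were barely above 0 in part of the SHR libraries. In 9 of the 74 at least 1 SHR value was under 0.1, which concerned 13 of 444 values, and in 21 the highest SHR value was at least 10 times the lowest. MERGE.2063.2 stood at 9.46 in SHR 3, 8.97 in SHR 48 and 5.22 in SHR 40, but at 0.0379 to 0.0817 in SHR 41, 59 and 60. The 6 animals of this inbred strain thus fell on both sides of a wide gap for this transcript. MERGE.16150.1 stood at 42.9 in SHR 59 and 34.6 in SHR 3, and between 0.0550 and 1.12 in the other 4. MERGE.17566.3 was at 0.0245 in SHR 41 and 0.0523 in SHR 40, and between 6.07 and 17.5 in the other 4. The libraries with high values differed among these 3 transcripts, while SHR 41 was among the lower ones in each.

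In other uneven members a single animal stood apart. MERGE.1957.2 reached 18.8 in SHR 41 against 0.459 to 1.84 in the others, and MERGE.22126.1 reached 5.68 in SHR 59 against 0.154 to 1.70. MERGE.4323.2 was lowest in SHR 59 (0.00749) and highest in SHR 3 (6.29). Over all 74, SHR 60 held the lowest value of 22 members, SHR 59 of 19 and SHR 40 of 2, while SHR 41 held the highest value of 20. SHR 60 had the largest summed signal of the list, 50052, and the most listed transcripts at 0, 745; 35 members reached a value of 1 there, against 41 to 45 in each of the other 5. The part of these library properties in the members' values was not tested. The sum over the 74 ranged from 275.4 in SHR 60 to 345.1 in SHR 3.

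**Figure D3:**
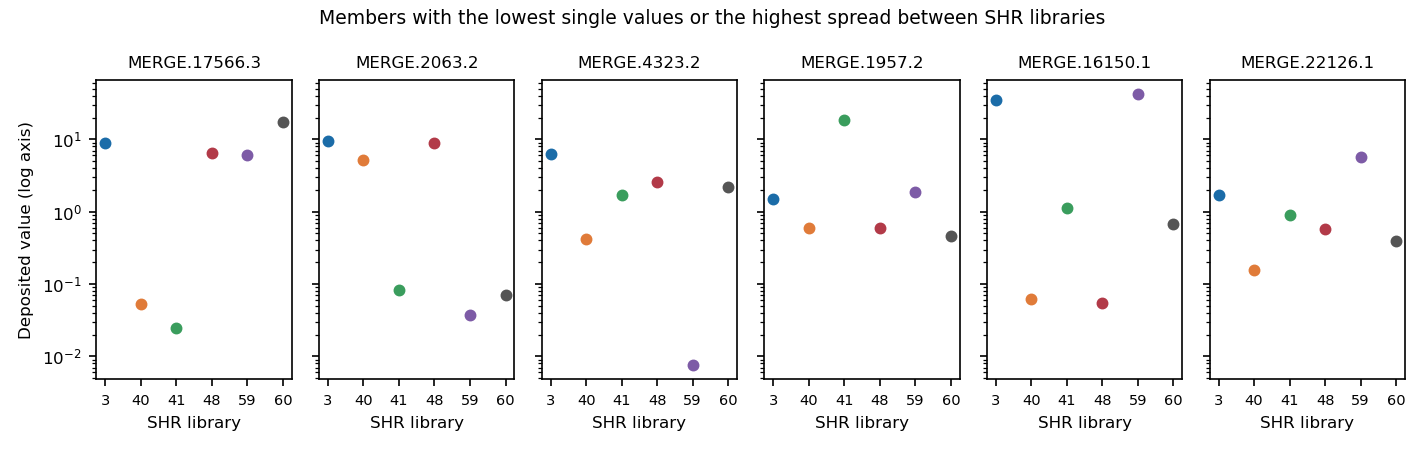
Deposited value (log axis) in each SHR library, by the number in its label, for the 6 members with the lowest single values or the highest coefficients of variation. MERGE.2063.2, MERGE.16150.1 and MERGE.17566.3 each have a group of high and a group of low values, in different libraries each time.

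The assembled loci allowed a look at the other listed transcripts of the same locus, which had not met the rule. At 15 of the 58 loci the list held such companions, 56 in all, and at 43 loci it held none. For the strain comparison, limma was fitted on log2(value + 1) over the 1585 listed transcripts that reached 1 in 6 or more of the 12 libraries, and a transcript was called where its p, adjusted by the Benjamini-Hochberg method, was below 0.05. In this fit 82.5% of all tested transcripts were called, 44.4% higher and 38.1% lower in SHR, which is the background for what follows. Of the 56 companions 18 were tested and 17 (94.4%) were called, 9 higher and 8 lower in SHR. The tested companions came from 5 loci, and 13 of them from MERGE.16145, where 6 were higher and 7 lower. At the other 4 loci 5 were tested, 3 higher and 1 lower, with a median log2 fold change of 0.83. The median log2 fold change was 0.55 in all 18 tested companions and 0.63 in all tested transcripts. Without the filter on low values 49 of the 56 were called, 34 higher and 15 lower, where 69.6% of all 3659 listed transcripts were called, 38.0% higher and 31.6% lower. Companions were measured in the same libraries as the members and may share reads with them, so these counts are not independent of how the members were chosen. Transcripts that met the rule could not be companions, so the rule also shaped the counts of higher and lower ones.

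Locus MERGE.16145 held 3 members and 29 companions. In it some transcripts were higher in WKY and others in SHR, and all 13 tested were called. MERGE.16145.44 stood at 8.84 ± 3.61 in WKY and fell to 0.569 ± 1.39 in the SHR group (SD, n = 6 each; log2 fold change -2.87, SE 0.39, limma adjusted p = 3.41e-05); it was at 0 in 5 SHR libraries and at 3.41 in SHR 59. MERGE.16145.83 rose from 1.14 ± 1.05 to 16.3 ± 8.60 (log2 fold change 2.78, SE 0.58, limma adjusted p = 0.00150). MERGE.16145.1 rose to 11.9 ± 14.8 in SHR and was at 0 in 5 WKY libraries and at 3.06 in WKY 4 (log2 fold change 2.45, SE 0.69, limma adjusted p = 0.00918).

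Some further companions of this locus went the opposite way to the members, and others the same way. MERGE.16145.12, MERGE.16145.17, MERGE.16145.22 and MERGE.16145.48, named here after their values were seen, were at 0 in all 6 SHR libraries, which held for 4.54% of the whole list, and the first and last of them were above 0 in all 6 WKY libraries. MERGE.16145.78 and MERGE.16145.21 were at 0 in all WKY libraries but missed the rule in SHR. Over all loci, 6 of the 56 companions were at 0 in all SHR libraries and 11 in all WKY libraries. The latter held for 8.14% of the whole list, a share that includes the members, whereas no companion could meet the rule. While single transcripts differed widely, the companions summed to 172.2 ± 26.3 in WKY and 167.9 ± 32.5 in SHR (SD, n = 6 each), a difference smaller than the spread between animals of either strain. The 3 members, MERGE.16145.43, MERGE.16145.49 and MERGE.16145.33, added 12.0 ± 5.01 to this in SHR and nothing in WKY. MERGE.16145.43 and MERGE.16145.33 were highest in SHR 60, at 16.7 and 2.31, whereas MERGE.16145.49 was highest in SHR 59, at 6.61.

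**Figure D4:**
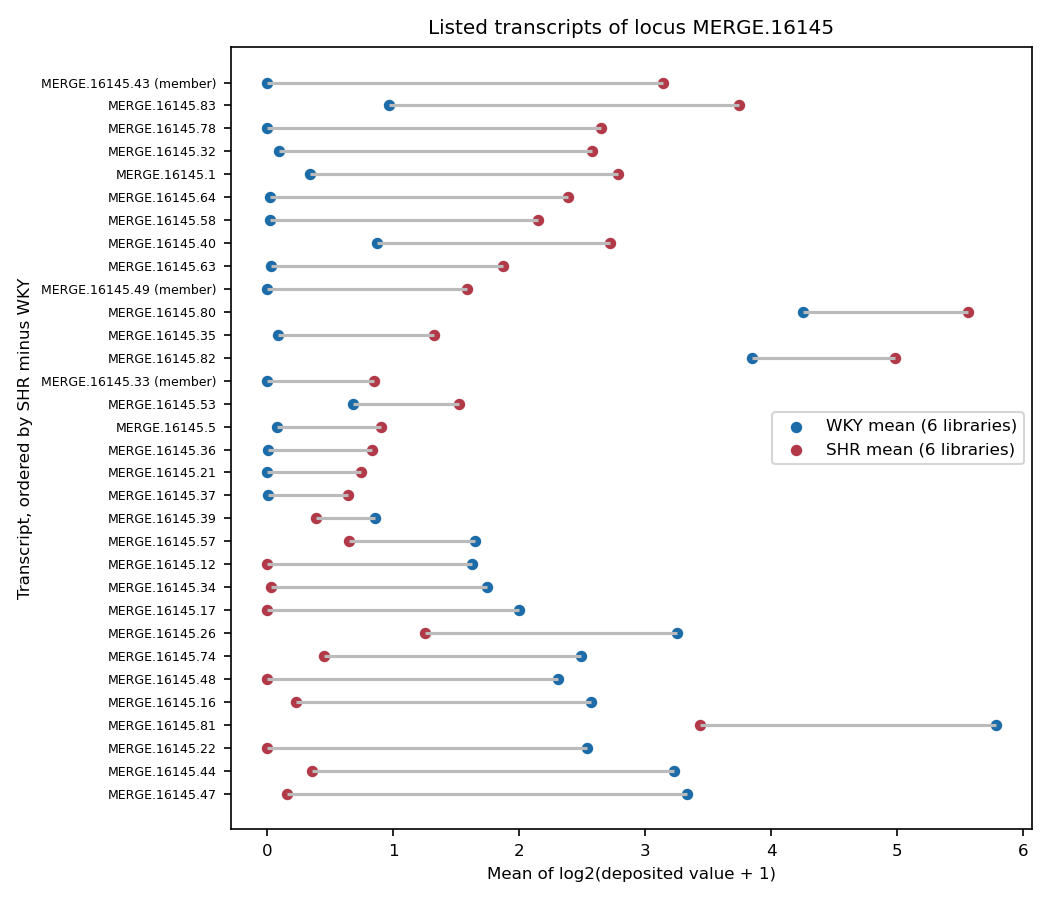
Mean of log2(deposited value + 1) over 6 WKY (blue) and 6 SHR (red) libraries for the 32 listed transcripts of locus MERGE.16145, ordered by the difference. The 3 members start at 0 in WKY; of the 29 companions 16 have the higher mean in SHR and 13 in WKY.

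MERGE.2063 had 2 listed transcripts. The companion MERGE.2063.4, named after its values were seen, was at 0 in all 6 SHR libraries and ranged in WKY from 0.0967 in WKY 3 over 4.46 to 7.86 in 4 animals to 11.8 in WKY 6. The member MERGE.2063.2 was at 0 in WKY and above 0 in SHR. The 2 listed transcripts together gave 6.26 ± 3.87 in WKY and 3.97 ± 4.53 in SHR (SD, n = 6 each), a difference within the spread. Similar sums in both strains were not general. At MERGE.4323 the companions alone summed to 0.102 ± 0.0850 in WKY and 10.1 ± 8.03 in SHR. Those of MERGE.581 summed to 1.27 ± 0.877 and 6.37 ± 1.98. At MERGE.8201 the companion was at 0 in WKY and at 2.67 ± 1.85 in SHR. The companions' mean sum was lower in SHR at MERGE.12817, MERGE.16145, MERGE.2063 and MERGE.3692, and higher at the other loci with companions. At MERGE.12817 this rested on WKY 5, at 3.75. The other WKY values there were at most 0.00179, below the lowest SHR value of 0.00828. At MERGE.3692 the companion MERGE.3692.2 stood at 5.13 ± 0.835 in WKY and fell to 1.59 ± 1.80 in the SHR group (log2 fold change -1.48, SE 0.36, limma adjusted p = 0.00424), while the member MERGE.3692.1 stood at 2.64 ± 1.37 in SHR.

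At MERGE.17566 and MERGE.24498 the companions called were higher in SHR. MERGE.17566.4 rose from 5.58 ± 1.60 to 16.2 ± 10.5 (log2 fold change 1.24, SE 0.36, limma adjusted p = 0.00993), and like the member MERGE.17566.3 it was highest in SHR 60 and lowest in SHR 40 and 41. MERGE.24498.23 rose from 0.131 ± 0.226 to 1.59 ± 0.545 (log2 fold change 1.19, SE 0.17, limma adjusted p = 7.54e-05) and MERGE.24498.17 from 0.472 ± 0.702 to 1.495 ± 0.664 (log2 fold change 0.83, SE 0.27, limma adjusted p = 0.0177). The third companion of that locus, MERGE.24498.22, was too low to be tested and had the lower mean in SHR, 0.300 ± 0.549 against 0.644 ± 0.589 in WKY. MERGE.25673.1 was the tested companion without a call, at 1.03 ± 1.18 in WKY and 1.16 ± 0.542 in the other strain (log2 fold change 0.27, SE 0.35, limma adjusted p = 0.464).

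Within the SHR group, members and companions of some loci varied in opposite ways. At MERGE.25673 the member MERGE.25673.4 ranged from 0.0443 in SHR 48 to 1.29 in SHR 40, and the companion MERGE.25673.1 from 0.503 in SHR 40 to 1.87 in SHR 48. Their sum stayed between 1.69 and 1.96 in all 6 animals, with an SD of 0.103 against 0.496 for the member and 0.542 for the companion. The member of MERGE.3692 was lowest in SHR 48 at 0.379, where its companions summed to their highest value, 4.82. At MERGE.15790 the member was lowest in SHR 40 and SHR 59, at 1.14 and 2.90, the 2 libraries in which MERGE.15790.1 was highest, at 3.47 and 6.76. This was not a rule: of 14 loci with companion values in SHR, the sum varied less than both of its parts at 5, more than both at 5 and to an intermediate extent at 4. In this respect MERGE.25673 was chosen after its values were seen.

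Members of the same locus differed in how far they moved together. MERGE.5915.8 and MERGE.5915.9 were both highest in SHR 41 (1.34 and 1.38) and lowest in SHR 59 (0.212 and 0.349). MERGE.15879.1 and MERGE.15879.3 were both highest in SHR 60 (6.57 and 1.18) and lowest in SHR 48 (1.23 and 0.224). MERGE.3410.2 ranged from 0.584 to 1.97 and MERGE.3410.3 from 0.487 to 1.08, and MERGE.12817.21 from 0.470 to 1.49 and MERGE.12817.22 from 0.0924 to 1.98, without a shared extreme library. Between locus numbers 15759 and 16150 lay 10 members at 7 loci, 15.6% of the assembled members, against 4.07% of all assembled transcripts listed. This stretch was picked as the one of up to 500 numbers with the most members, so an excess in it was built into the choice. Whether the members' numbers were spread unevenly was not tested, and whether neighbouring numbers are neighbours in the genome is not stated.

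The treatment comparison asks whether these transcripts differed in SHR that had received ethoxysanguinarine. The SHR+ETH files held 3 of the 74 (4.05%), against 420 of all 3659 listed transcripts (11.5%), and for the other 71 nothing can be said about treated animals. The 3 were MERGE.18181.1, MERGE.3502.4 and MERGE.24498.5. All 3 had lower means in treated than in untreated SHR, and 8 of their 18 values in treated animals were 0. Since being above 0 in all 6 untreated SHR was a condition of membership, zeros could appear within the SHR strain only in treated animals, and a lower value there is partly built into the choice. No p-value is therefore given for the 3, and whether treatment changed them is not decided here.

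MERGE.18181.1 was at 0 in SHR+ETH 54 and SHR+ETH 64 and between 3.65 and 10.9 in the other 4 treated rats, with a mean of 4.57 ± 4.37 (SD, n = 6) against 7.78 ± 3.23 in untreated SHR. The groups overlapped (log2 fold change -1.12, SE 0.62, in the limma fit of the 199 shared transcripts tested). MERGE.3502.4 was at 0 in SHR+ETH 2, 64 and 65 and at 3.47, 5.13 and 9.16 in SHR+ETH 58, 54 and 1, the last above every untreated animal. Its mean was 2.96 ± 3.73 against 4.46 ± 2.47, and the groups overlapped (log2 fold change -0.97, SE 0.58). In the same fit 33.7% of tested transcripts were called, 25.1% lower and 8.54% higher in treated animals. The median log2 fold change of all 199 tested transcripts was also negative, at -0.85, and MERGE.18181.1 and MERGE.3502.4 lay below it. Quantile normalization, which gives all libraries the same distribution, moved that median to -0.26 and the calls to 48 higher and 7 lower from 17 higher and 50 lower. The 2 members then stood at -0.77 and -0.61, still lower in treated animals.

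MERGE.24498.5 was too low for that fit. It was at 0 in SHR+ETH 1, 54 and 58, at 0.0586 and 0.0679 in SHR+ETH 64 and 65 and at 0.456 in SHR+ETH 2, with a mean of 0.0971 ± 0.179 (SD, n = 6) against 0.572 ± 0.385 in untreated SHR. Among the untreated animals SHR 59 and SHR 60 stood at 0.0433 and 0.110, within the treated range, and the other 4 between 0.790 and 0.877, above all treated values. The mean log2(value + 1) differed by -0.49. SHR+ETH 64 was at 0 or near 0 in all 3 of these transcripts.

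**Figure D5:**
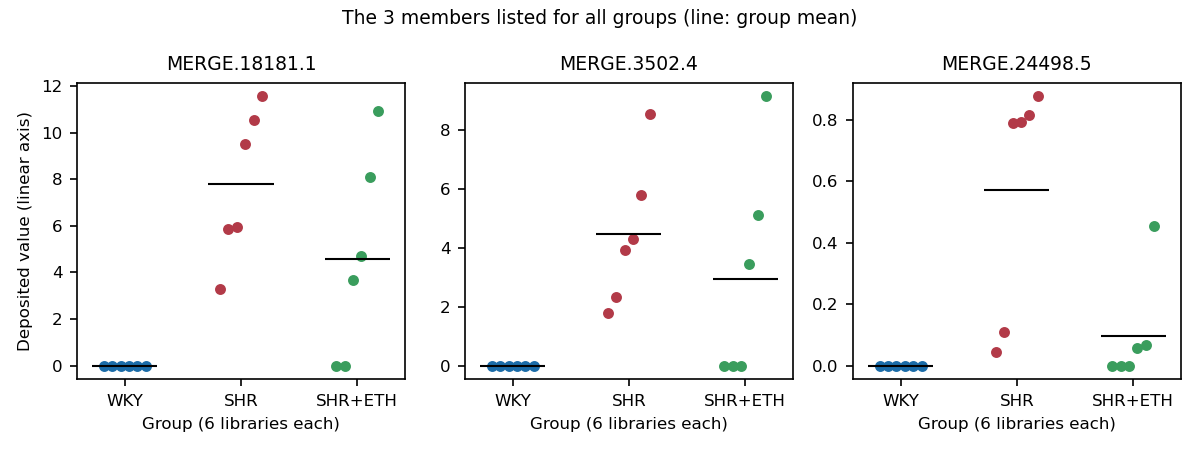
Deposited value (linear axis) of the 3 members listed for all groups in 6 WKY, 6 SHR and 6 SHR+ETH libraries, with the group mean as a line. Treated animals range from 0 up to 10.9, 9.16 and 0.456 and overlap the untreated SHR in each transcript, while all WKY values are 0.

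Among the 414 other shared transcripts compared, outside the 2 loci left out, the 3 whose log2(value + 1) followed the mean of these 3 members most closely over the 18 libraries were ENSRNOT00000078017 (Pearson r = 0.820), MERGE.25785.7 (0.816) and ENSRNOT00000064614 (0.796). They were picked for this likeness, which includes the difference between groups. ENSRNOT00000064614 stood at 0.811 ± 0.269 in SHR, 0.213 ± 0.210 in SHR+ETH and 0.00291 ± 0.00712 in WKY (SD, n = 6 each), and ENSRNOT00000078017 at 2.23 ± 0.292, 1.36 ± 1.26 and 0.449 ± 0.697. MERGE.25785.7 stood at 47.5 ± 17.0 in SHR, 21.4 ± 19.8 in SHR+ETH and 11.8 ± 28.9 in WKY. For MERGE.25785.7 and ENSRNOT00000064614 the size of the WKY SD against the mean leaves a single WKY library above 0. Their WKY means therefore do not describe a level shared by the WKY animals.

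Of the companions, 2 were also in the SHR+ETH files. MERGE.2063.4, absent from all untreated SHR, was above 0 in 3 treated SHR, at 3.76 in SHR+ETH 64, 0.505 in SHR+ETH 54 and 0.296 in SHR+ETH 65, and at 0 in the other 3. A transcript at 0 in every untreated animal of the strain was thus above 0 in other animals of the strain. The difference of MERGE.2063.4 between treated and untreated SHR had an exact two-sided permutation p = 0.182. MERGE.16145.5 was at 0 in 4 treated animals and at 1.72 in SHR+ETH 1, with a mean of 0.289 ± 0.702 against 1.18 ± 1.35 in untreated SHR (SD, n = 6 each; exact two-sided permutation p = 0.119).

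The opposite class, at 0 in all SHR and above 0 in all WKY libraries, held 58 transcripts outside the 2 loci left out, 7 of them Ensembl transcripts; with those loci it made up 1.8% of the list. Its level in the strain where it was above 0 was higher, with a median of WKY medians of 2.22 against the 1.07 of the 74 in SHR, and in 20 of the 58 every WKY library reached 1, against 17 of the 74 for SHR. The SHR+ETH files held 2 of the 58 (3.45%), beside 4.05% of the 74. These comparisons of the 2 classes were not tested.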

How the data were processed

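The deposited tables held a signal value for each transcript; per the file headers neither unit nor scale is named. The submitters' processing notes name limma, with no version; the aligner, quantification program, genome build and assembly: not given in the sources used here. Rows without identifier (2024 in each SHR+ETH table) were dropped. Members were the transcripts at exactly 0 in 6 WKY and above 0 in 6 SHR libraries, without loci MERGE.19062 and MERGE.16214. Members, lists and tests were chosen with earlier results of these data known. Comparisons were fitted with limma 3.58.1 (lmFit, eBayes with trend) in R 4.3.3 on log2(value + 1), over all listed transcripts that reached 1 in 6 or more of 12 libraries, with Benjamini-Hochberg adjustment at 0.05; the step was tested on simulated data. Fold changes on this scale understate changes of low transcripts. Of the members, 17 passed this filter in the strain fit, through their SHR values. Companions below the filter of the treatment fit were compared by exact permutation tests (Python 3.11.15, scipy 1.17.1). If the lists were selected for differences in these libraries, adjusted p-values are too small. Named were all Ensembl members, those in the SHR+ETH tables, the 10 highest medians, loci with 2 or more members, the 3 lowest single values and the 3 highest coefficients of variation, 3 transcripts outside the rule on each side, up to 3 tested companions a locus by fold change, and the 3 transcripts most like the members in the SHR+ETH tables.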

Additional observations from a re-analysis of the deposited data

Results flagged for a closer look

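In 7 of 56 groups of 6 values examined, the gap between 1 library and its nearest neighbour took up most of the group's range (Dixon's test). About 1 in 20 groups would be picked by chance if values were normal, and these were skewed with many zeros. Some members, among them MERGE.1957.2 and MERGE.22126.1, were examined because their values were uneven, so the 7 cannot be set against that rate. Among members, MERGE.1957.2 stood at 18.8 in SHR 41 (others 0.459 to 1.84), MERGE.22126.1 at 5.68 in SHR 59 (others 0.154 to 1.70), MERGE.16145.49 at 6.61 in SHR 59 (others 0.789 to 2.68) and MERGE.24498.5 at 0.456 in SHR+ETH 2 (others 0 to 0.0679). Among companions, MERGE.16145.1 stood at 3.06 in WKY 4 and MERGE.16145.44 at 3.41 in SHR 59 with the others at 0, and MERGE.24498.23 stood at 0.583 in WKY 6 (others 0 to 0.118).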

How the results depend on the processing

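The number of transcripts at 0 in WKY and above 0 in SHR was 17 when each SHR library had to reach 1, and 79 to 91 when any 1 library was left out, which loosens the rule. The other thresholds moved it by less than 1.5 times. Of the members' values in SHR+ETH 6 to 7 were at 0 without any 1 treated library. The number of shared transcripts called between SHR+ETH and SHR fell from 67 to 12 (pseudocount of 0.1), 43 (no filter) and 37 (all 18 libraries fitted together). Leaving out 1 library gave 11 to 71 calls: 11 when SHR 41 was dropped, 23 for SHR 48, 25 for SHR 3, 27 for SHR 40 or SHR 60, 40 for SHR+ETH 65 and 44 for SHR 59 or SHR+ETH 54. The cause was not tested. MERGE.18181.1 and MERGE.3502.4 kept a lower mean in treated animals under every alternative run. All these runs reused SHR values that had chosen the 2 members, so the shared direction is partly built in and decides nothing about treatment. Companions called between the strains numbered 49 of 56 without the filter (69.6% over all listed transcripts in that fit) and 16 to 17 without single libraries. The named companions kept their direction and their side of the threshold under the alternatives run. No paired analysis was possible because the numbers shared by groups belong to animals of different strains, and SHR and SHR+ETH share none.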
